A study of Mus musculus with 6 samples.

Results

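The genes described here are the 5 subunits of the muscle acetylcholine receptor (*Chrna1*, *Chrnb1*, *Chrnd*, *Chrne* and *Chrng*) and 5 genes that build the postsynaptic side of the neuromuscular junction (*Musk*, *Rapsn*, *Lrp4*, *Dok7* and *Agrn*). They were chosen by name for their known place in the junction, as the genes in which a denervation-like pattern would be looked for, and all 10 of them, of 24532 genes in the table, were measured and passed the filter on low counts. RNA-seq was performed on mouse gastrocnemius, a mixed hindlimb muscle, in 3 libraries labelled WT (*Sirt6* flox/flox) and 3 labelled *Sirt6* KO (*Myl1-Cre*; *Sirt6* flox/flox). All came from C57BL/6 animals of 20 weeks of age, males by the methods, and both groups carried the floxed alleles, so that the Cre was the allele that set them apart. *Myl1-Cre* drives recombination mainly in fast fibers once they have left the cell cycle, and satellite cells, nerve, Schwann cells and vessels of the same tissue lie outside its known range. The control animals carried no Cre, so an effect of the Cre itself and an effect of *Sirt6* loss cannot be told apart.

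At the junction, the motor nerve releases acetylcholine, which opens a pentameric channel made of alpha, beta and delta subunits together with gamma in the fetus or epsilon in the adult. Nerve-derived agrin binds LRP4 on the fiber, which activates the kinase MuSK; Dok7 acts inside the fiber to activate MuSK, and rapsyn anchors the receptors into dense clusters. When a muscle loses its nerve, myogenin and other factors switch receptor genes on along the whole fiber, and transcripts for the alpha, gamma and delta subunits and for MuSK are known to rise together, whereas in an innervated adult fiber these genes are read mostly in the few nuclei under the synapse.

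Library totals ran from 44845763 to 63016899 counts. *Sirt6*, the targeted gene, went against the labels. It was at 2.77, 2.23 and 2.88 normalized CPM (counts scaled to library size with edgeR's TMM factors) in WT and at 7.81, 7.44 and 6.68 in *Sirt6* KO, a log2 fold change of 1.48 with an adjusted p of 0.0113 (edgeR's quasi-likelihood test, Benjamini-Hochberg over all genes tested). The table does not resolve exons, so the deleted part could not be looked at. An exchange of the labels between the groups would turn every direction given here and was not tested. The groups below are the libraries labelled WT and the libraries labelled *Sirt6* KO. WT libraries 1 and 2 and *Sirt6* KO library 2 were rich in slow fiber transcripts (summed over 8 markers, 3583, 2960 and 2114 CPM, against 136 in WT library 3 and 365 and 504 in *Sirt6* KO libraries 1 and 3) and carried *Hbb-bt* counts, of which the other 3 libraries had none. That split crossed the genotypes and touches several genes below. Genes of the myofiber were abundant, with 10 markers (among them *Acta1*, *Ckm* and *Myh4*) summing to between 144936 and 241468 CPM.

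Before the values, the 250 bases just upstream of the start site of each RefSeq promoter window are shown. They are given for the 3 subunit genes that changed and for the fetal gamma subunit. These genes are read through E-boxes, where myogenic factors bind, and through the N-box, an element of synapse-specific genes. Sequences and coordinates are those of RefSeq on GRCm38.p6, 5′ to 3′ along the gene. Distances below count from the start site of the window. For *Chrnb1* and *Chrne* that site lies inside the gene span, which begins at 69795966 and 70619213 on the minus strand. The last bases shown for these genes are thus within the gene. Capitals mark the E-box letters CANNTG and the N-box letters CCGGAA.
Chrna1 (alpha, chr2:73580339-73580588, minus strand): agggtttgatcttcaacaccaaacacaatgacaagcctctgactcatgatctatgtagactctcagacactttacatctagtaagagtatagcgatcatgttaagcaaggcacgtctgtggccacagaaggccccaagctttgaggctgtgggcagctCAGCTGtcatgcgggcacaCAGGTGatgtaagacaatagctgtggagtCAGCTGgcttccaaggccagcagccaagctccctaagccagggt
Chrnb1 (beta, chr11:69795938-69796187, minus strand): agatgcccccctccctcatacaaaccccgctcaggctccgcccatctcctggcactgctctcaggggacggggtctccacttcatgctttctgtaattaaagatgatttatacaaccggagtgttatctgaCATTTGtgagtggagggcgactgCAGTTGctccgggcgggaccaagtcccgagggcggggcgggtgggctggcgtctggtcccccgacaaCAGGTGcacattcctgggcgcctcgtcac
Chrne (epsilon, chr11:70619195-70619444, minus strand): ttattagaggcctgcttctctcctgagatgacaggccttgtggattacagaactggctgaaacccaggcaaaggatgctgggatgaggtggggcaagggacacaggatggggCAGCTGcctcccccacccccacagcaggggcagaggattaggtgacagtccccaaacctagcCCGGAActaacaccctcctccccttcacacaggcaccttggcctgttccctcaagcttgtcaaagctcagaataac
Chrng (gamma, chr1:87205561-87205810, plus strand): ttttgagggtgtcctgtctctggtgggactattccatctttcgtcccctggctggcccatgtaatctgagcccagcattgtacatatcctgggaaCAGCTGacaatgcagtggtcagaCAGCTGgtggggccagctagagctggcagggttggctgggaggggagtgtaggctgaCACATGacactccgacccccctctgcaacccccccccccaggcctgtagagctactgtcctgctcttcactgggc
*Chrna1*, *Chrnb1* and *Chrng* each held 3 E-boxes and *Chrne* held 1. In *Chrna1* they began 92, 73 and 44 bases before the start site, and those at 92 and 44 had the core CAGCTG. In *Chrne* the CAGCTG E-box began 138 bases before the start and the N-box 76 bases before it. Windows running 250 bases before to 50 after a start were given for 7 of the 10 genes (9 windows, *Dok7* and *Agrn* with a pair each), and *Chrnd*, *Rapsn* and *Lrp4* had no entry. An E-box stood in 7 of the 9 windows, CAGCTG in 4 and the N-box in 1, that of *Chrne*. Each of the 7 genes had an E-box in at least 1 window. Over 32851 promoter windows of that length, searched on both strands, 72.3% held CANNTG, 16.3% CAGCTG (a form of the former) and 14.9% CCGGAA. A match in these letters describes the sequence and is not evidence of binding.

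Of the 10 genes, 3 rose in *Sirt6* KO and none fell at an adjusted p of 0.05, and all 3 that rose encode subunits of the adult receptor. *Chrnb1* and *Chrne* were more than 2-fold higher, *Chrna1* was 1.65-fold higher, and the delta and gamma subunits, the agrin receptor pathway and rapsyn did not pass. Over all 13801 genes tested, 16.2% passed in either direction, 7.85% higher and 8.39% lower. The count of 3 among 10 stood above the upward background, with no test made of that difference. The 10 genes, like the other lists below, were chosen with earlier results of these data known, so the count is a description. DESeq2 gave an adjusted p for 9 of the genes (not *Chrng*) and called 4 higher, with *Lrp4*, and 1 lower, *Dok7*. It called far more of the table too, 26.9% of 13257 genes with an adjusted p, 13.2% higher and 13.7% lower. The median log2 fold change of the 10 genes was 0.47, beside -0.02 over all genes tested. The groups did not overlap for 7 of the genes, 6 of them higher in *Sirt6* KO and 1 lower, where 20.3% of all genes tested had no overlap with *Sirt6* KO higher and 19.6% with it lower. At an unadjusted p under 0.05 with a change above 2-fold, which 3.14% of all genes tested met with *Sirt6* KO higher, 2 of the 10 genes counted, *Chrnb1* and *Chrne*.

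**Figure D1:**
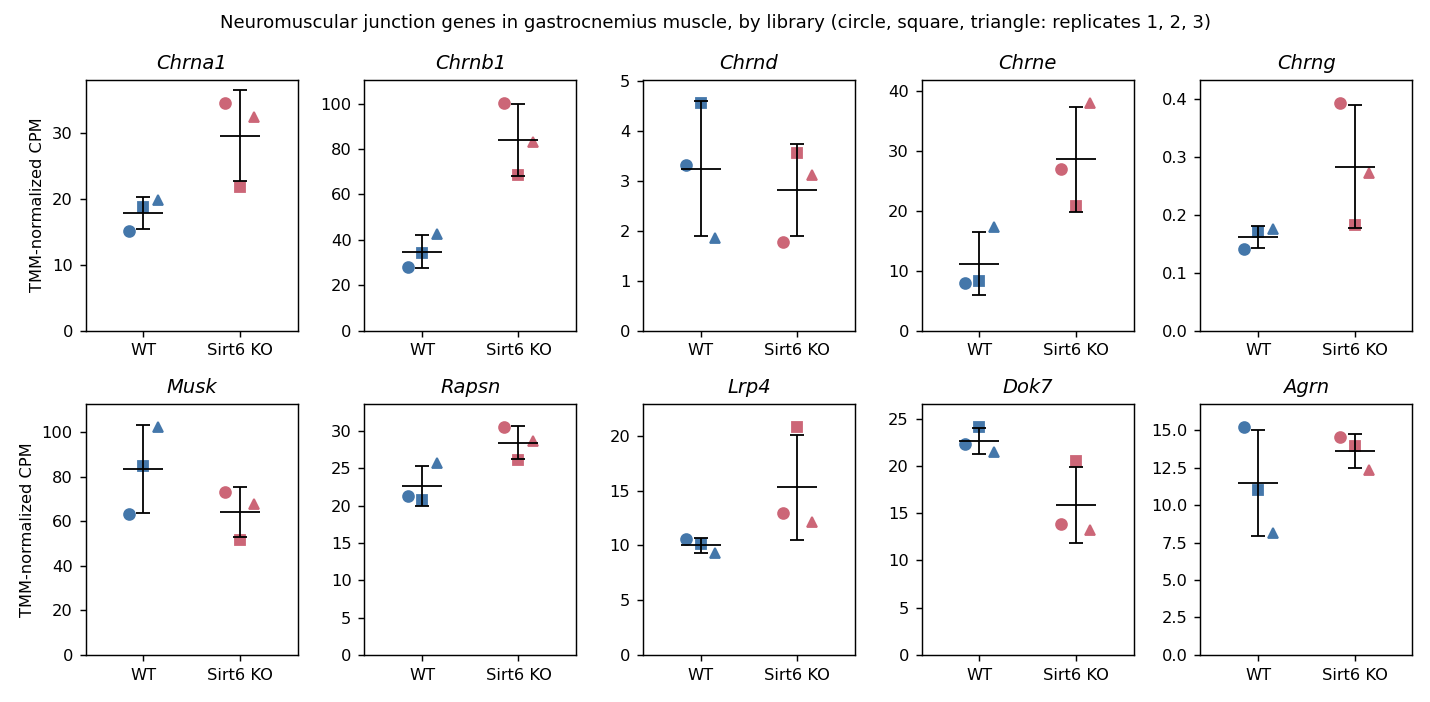
Each panel shows 1 gene, with its TMM-normalized CPM on the vertical axis from 0 and each point a library (circle, square and triangle for replicates 1, 2 and 3, blue for WT and red for *Sirt6* KO). Black bars give the mean and SD of 3 libraries. *Chrnb1* separates the groups most clearly, from 27.9 to 42.6 in WT and from 68.7 to 100.5 in *Sirt6* KO, whereas *Chrnd*, *Musk* and *Agrn* overlap.

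The beta subunit, a structural part of every muscle receptor, had the smallest p of the 10 genes. *Chrnb1* (NCBI Gene 11443, chr11:69784036-69795966 on GRCm38) was at 27.9, 34.0 and 42.6 CPM in WT and at 100.5, 68.7 and 83.0 CPM in *Sirt6* KO. Every *Sirt6* KO library lay above every WT library. The means were 34.8 ± 7.34 and 84.1 ± 15.9 CPM (SD, n = 3 each), which is a log2 fold change of 1.27 (SE 0.20, 95% interval 0.81 to 1.73), or 2.41-fold, with an adjusted p of 0.0138 in edgeR's test (Benjamini-Hochberg). It took place 270 by p among all genes tested. The call was lost in 3 of the 6 fits that left out 1 library (adjusted p 0.0553 without WT library 2, 0.0608 without *Sirt6* KO library 1 and 0.0723 without *Sirt6* KO library 3), and the log2 fold change stayed between 1.12 and 1.44.

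The epsilon subunit replaces gamma after birth and gives the adult channel its short open time. *Chrne* (NCBI Gene 11448, chr11:70614883-70619213) was at 8.00, 8.29 and 17.2 CPM in WT and at 27.0, 20.7 and 38.0 CPM in *Sirt6* KO. The groups did not overlap, although WT library 3, which was poor in slow fiber transcripts, came close to the lowest *Sirt6* KO library. The means were 11.2 ± 5.23 and 28.6 ± 8.78 CPM (SD, n = 3 each), which is a log2 fold change of 1.35 (SE 0.35, 95% interval 0.54 to 2.17), or 2.55-fold, with an adjusted p of 0.0406 in edgeR's test (Benjamini-Hochberg). Among the libraries rich in slow fiber transcripts, *Sirt6* KO library 2 (20.7 CPM) was above both WT libraries (8.00 and 8.29 CPM). Among those poor in them, *Sirt6* KO libraries 1 and 3 (27.0 and 38.0 CPM) were above WT library 3 (17.2 CPM). With the split held in the fit, the log2 fold change of *Chrne* was 1.13. Its call was lost in 5 of the 6 fits without 1 library, all but the one without WT library 3, and the log2 fold change ran from 1.09 (adjusted p 0.135, without *Sirt6* KO library 3) to 1.81. An overlapping gene on that stretch of chromosome 11, 4930544D05Rik, had no count in any library. Genes that overlap *Chrna1* (Gm30940, 2098 bases), *Rapsn* (Gm13778, 10258 bases) and *Agrn* (Gm46878, 11435 bases) were not among the genes counted, so their reads could not be looked at.

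The alpha subunit carries the acetylcholine binding face and enters each receptor as a pair. *Chrna1* (NCBI Gene 11435, chr2:73563281-73580338) was at 15.1, 18.7 and 19.9 CPM in WT and at 34.7, 21.7 and 32.4 CPM in *Sirt6* KO. The groups did not overlap, but *Sirt6* KO library 2 stood close to the WT libraries. The means were 17.9 ± 2.46 and 29.6 ± 6.91 CPM (SD, n = 3 each), which is a log2 fold change of 0.73 (SE 0.20, 95% interval 0.27 to 1.19) with an adjusted p of 0.0464 in edgeR's test (Benjamini-Hochberg). This call lay at the threshold. It held in 6 of 16 alternative fits, whereas that of *Chrnb1* held in 13 and that of *Chrne* in 9, and the log2 fold change of *Chrna1* stayed between 0.56 and 0.92 in all 16. Leaving out WT library 1 or 2 or *Sirt6* KO library 1 or 3 ended it, with adjusted p between 0.112 and 0.153.

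**Figure D2:**
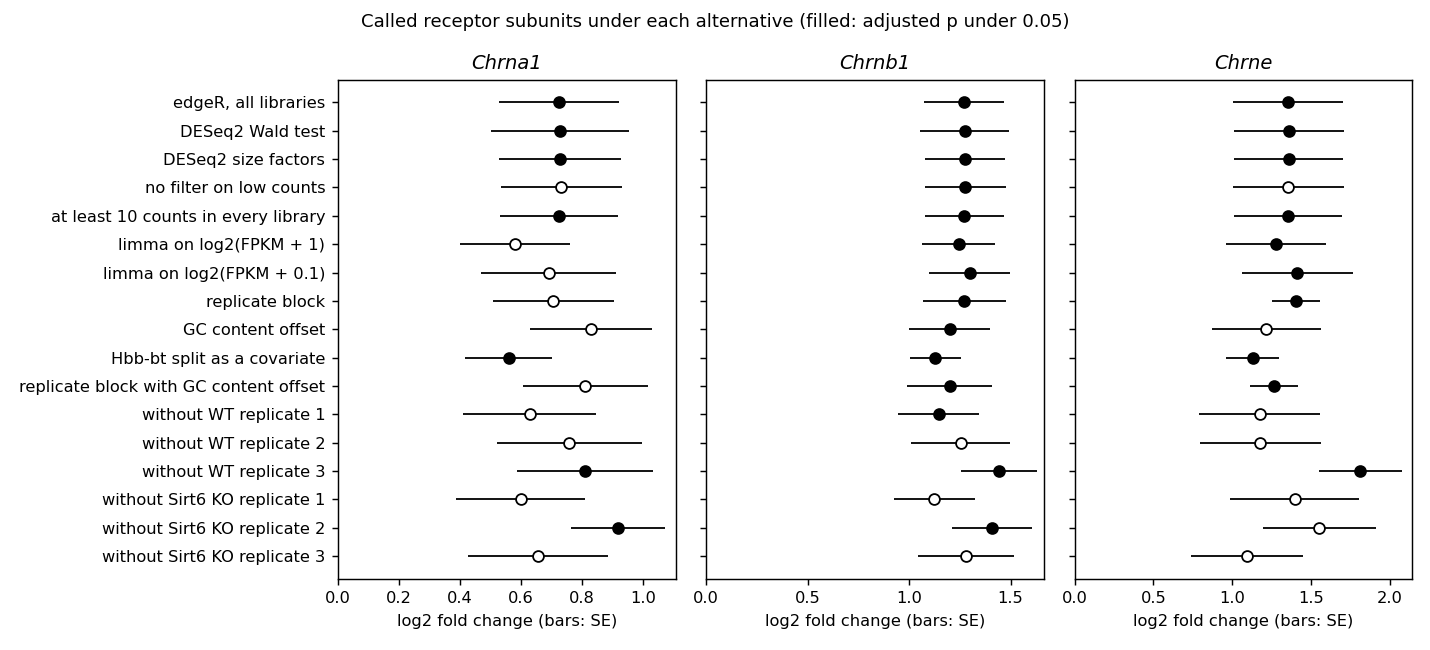
For *Chrna1*, *Chrnb1* and *Chrne*, each row is 1 fit, the horizontal axis gives the log2 fold change of *Sirt6* KO against WT with its SE, and filled points have an adjusted p under 0.05. Each fit places each of the 3 genes higher in *Sirt6* KO, and the open points, mostly among the fits without 1 library, show where the call was lost.

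The gamma subunit is the fetal form, which adult muscle makes again after denervation, and it remained close to the limit of detection. *Chrng* (NCBI Gene 11449, chr1:87205811-87211835) had 7, 8 and 10 counts in the WT libraries and 23, 11 and 15 counts in the *Sirt6* KO libraries. Scaled to depth, these were 0.140, 0.170 and 0.175 CPM in WT and 0.393, 0.181 and 0.272 CPM in *Sirt6* KO. The groups did not overlap, by a margin of less than 1 count between the highest WT and the lowest *Sirt6* KO library. The log2 fold change was 0.79 (SE 0.48, 95% interval -0.33 to 1.92) with an adjusted p of 0.276 in edgeR's test, so a rise of the size seen for *Chrna1* could be neither shown nor set aside at this depth.

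The delta subunit, which pairs with alpha at one of the binding sites, gave no difference. *Chrnd* (NCBI Gene 11447, chr1:87190597-87200070) was at 3.31, 4.56 and 1.85 CPM in WT and at 1.78, 3.55 and 3.10 CPM in *Sirt6* KO. The groups overlapped over most of their range, and WT library 3 and *Sirt6* KO library 1 were the lowest of their groups. The log2 fold change was -0.20 (SE 0.38, 95% interval -1.10 to 0.69) with an adjusted p of 0.737 in edgeR's test. Its interval excludes a rise as large as the estimate for *Chrnb1* or *Chrne* but includes a fall of 2-fold. With the slow fiber split held in the fit, its sign turned, to 0.12.

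In the clustering pathway, none of the 5 genes passed edgeR's test in either direction. Of the 5, 3 had an unadjusted p under 0.05, and DESeq2 called 2, *Lrp4* higher and *Dok7* lower. Over all genes, 4875 of the 13801 tested had an unadjusted p under 0.05 in edgeR's test, and DESeq2 called 26.9%. MuSK, the kinase around which the synapse is built and one of the transcripts that climbs in denervated muscle, was lower on average in *Sirt6* KO. *Musk* (NCBI Gene 18198, chr4:58285729-58377848) was at 63.1, 84.9 and 102 CPM in WT and at 72.9, 51.5 and 67.8 CPM in *Sirt6* KO. The groups overlapped through the lowest WT library. The log2 fold change was -0.38 (SE 0.20, 95% interval -0.86 to 0.10) with an adjusted p of 0.223 in edgeR's test, an interval whose upper bound allows a rise of only 0.10 on the log2 scale. With the slow fiber split held in the fit, through an *Hbb-bt* covariate chosen after seeing the data, it was -0.53 (adjusted p 0.0349, edgeR's test). *Musk* passed in only that 1 of its 16 alternative fits.

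Dok7, the cytoplasmic activator of MuSK, was the gene whose *Sirt6* KO libraries all lay below the WT libraries. *Dok7* (NCBI Gene 231134, chr5:35056571-35087839) was at 22.3, 24.1 and 21.5 CPM in WT and at 13.8, 20.5 and 13.2 CPM in *Sirt6* KO. *Sirt6* KO library 2 was within about 1 CPM of WT and the other *Sirt6* KO libraries were far below. The log2 fold change was -0.52 (SE 0.18, 95% interval -0.94 to -0.09) with an adjusted p of 0.0905 in edgeR's test (Benjamini-Hochberg). It passed in 4 of the 16 alternatives, at -0.78 with an adjusted p of 0.0471 where the fold change was corrected for GC content.

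LRP4 is the receptor for agrin on the fiber, and rapsyn is the scaffold on which receptors pack. *Lrp4* (NCBI Gene 228357, chr2:91457456-91513901) was at 10.6, 10.1 and 9.28 CPM in WT and at 13.0, 20.8 and 12.1 CPM in *Sirt6* KO, with *Sirt6* KO library 2 far above the other 5 libraries. Its log2 fold change was 0.61 (SE 0.22, 95% interval 0.11 to 1.12) with an adjusted p of 0.0908 in edgeR's test. *Rapsn* (NCBI Gene 19400, chr2:91035472-91045729) was at 21.4, 20.8 and 25.7 CPM in WT and at 30.6, 26.1 and 28.7 CPM in *Sirt6* KO. All *Sirt6* KO libraries were the higher ones for both genes, by a narrow margin for *Rapsn*. The log2 fold change of *Rapsn* was 0.33 (SE 0.12, 95% interval 0.04 to 0.62) with an adjusted p of 0.106 in edgeR's test, and it dropped to 0.09 where GC content was corrected for.

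Agrin, the ligand, is made by the motor nerve in its synaptic form and by the fiber and Schwann cells in other forms, which gene counts do not tell apart. *Agrn* (NCBI Gene 11603, chr4:156165290-156197533) was at 15.2, 11.1 and 8.17 CPM in WT and at 14.6, 14.0 and 12.4 CPM in *Sirt6* KO. The *Sirt6* KO values all lay inside the WT range. The log2 fold change was 0.25 (SE 0.22, 95% interval -0.27 to 0.77) with an adjusted p of 0.452 in edgeR's test. By the two-sided exact permutation test over the libraries, no gene could go below p = 0.1 with 3 against 3; the 7 genes whose groups did not overlap reached 0.1, and *Musk*, *Agrn* and *Chrnd* gave exact p of 0.3, 0.4 and 0.7.

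**Figure D3:**
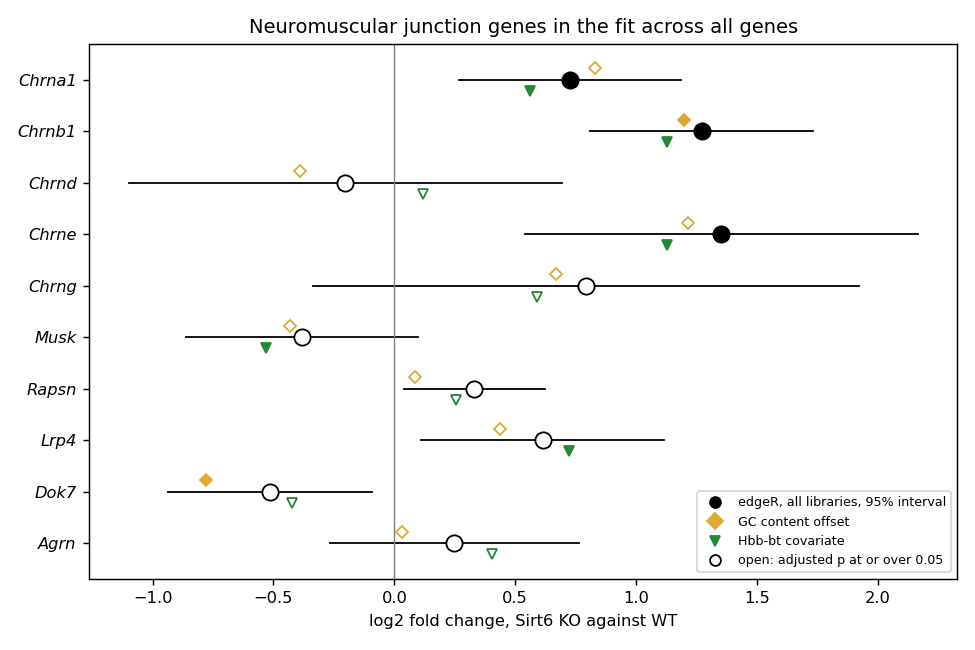
The horizontal axis is the log2 fold change of *Sirt6* KO against WT for each of the 10 genes. Black points and lines are edgeR's estimates over all libraries with 95% intervals, yellow diamonds the fit corrected for GC content, and green triangles the fit with the *Hbb-bt* split as a covariate. Filled symbols have an adjusted p under 0.05. *Chrnb1* is filled in each of the 3 fits, *Dok7* with the GC correction alone, and *Musk* and *Lrp4* with the covariate alone.

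Fold changes across the table rose with the GC content of the transcript (Spearman rho 0.33 over 13711 genes), and the 10 genes lay between 46.3% and 60.4% GC, with a median of 53.9% against 49.8% over all genes tested. Corrected for GC content, *Chrnb1* kept its call at 1.20 with an adjusted p of 0.0292 in edgeR's test, while *Chrna1* at 0.83 (adjusted p 0.0520) and *Chrne* at 1.22 (adjusted p 0.0718) moved past the threshold. *Chrna1* has the lowest GC content of the 10 genes and its fold change grew under the correction, whereas that of *Agrn*, at 56.5% GC, shrank to 0.03.

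Levels per transcript length, in the TPM that the authors deposited, set the 10 genes in order. In WT the kinase stood first, with *Musk* at 53.4 ± 7.28 TPM (SD, n = 3), followed by *Chrnb1* at 35.1 ± 3.55 and *Rapsn* at 30.4 ± 1.36, whose ranges touch. *Dok7* at 17.4 ± 2.56 and *Chrne* at 14.9 ± 5.19 TPM overlapped next, and *Chrna1* came below both at 9.02 ± 0.692 TPM. *Agrn*, *Lrp4* and *Chrnd* lay between 2.45 and 3.49 TPM with overlapping ranges, and *Chrng* was last at 0.170 ± 0.0148. In *Sirt6* KO, *Chrnb1* was first at 79.4 ± 17.3 TPM, clear of all others. *Musk* at 38.6 ± 7.55, *Chrne* at 36.3 ± 10.8 and *Rapsn* at 35.6 ± 3.75 TPM then overlapped one another. *Chrna1* at 13.9 ± 3.50 and *Dok7* at 11.2 ± 2.73 overlapped, and *Chrnd* at 1.90 ± 0.586 and *Chrng* at 0.289 ± 0.128 closed the order.

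**Figure D4:**
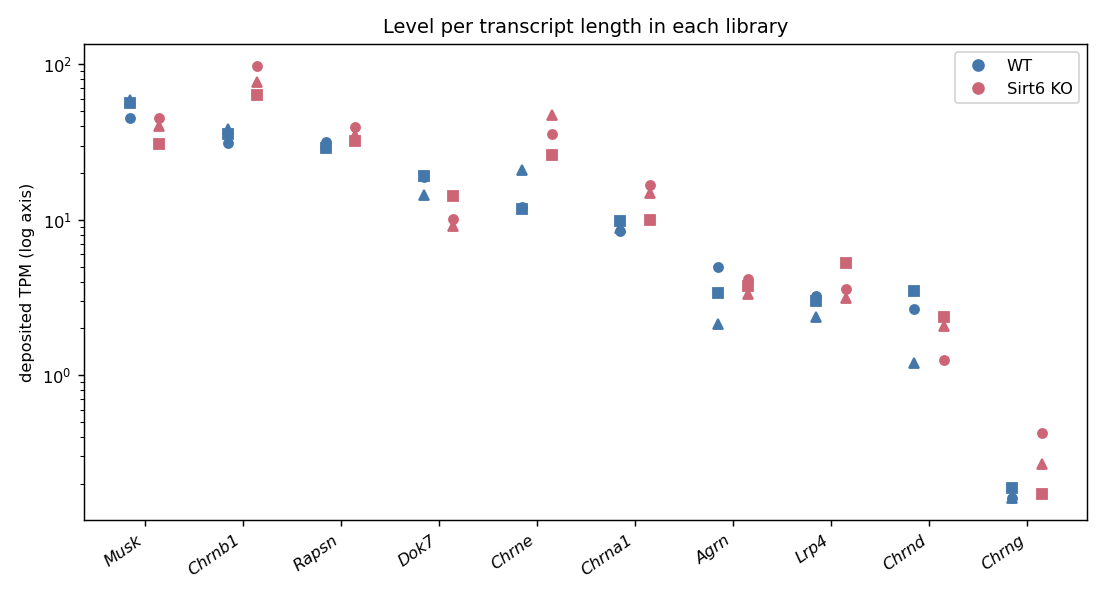
The vertical log axis gives the deposited TPM and the horizontal axis the 10 genes, in the order of their WT mean. Each point is a library, blue for WT and red for *Sirt6* KO, with circle, square and triangle for replicates 1, 2 and 3. The 6 libraries place *Chrng* below 0.5 TPM and below every other gene, and *Chrnb1* and *Chrne* show the widest upward shift.

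The balance of adult to fetal subunit overlapped between the groups. In TPM, epsilon to gamma stood at 74.7, 62.6 and 128 in WT and at 83.4, 151 and 176 in *Sirt6* KO. Gamma made up 0.296%, 0.308% and 0.234% of the TPM of the 5 subunits in WT and 0.280%, 0.168% and 0.190% in *Sirt6* KO, overlapping ranges that rest on the few gamma counts given above. The 5 subunits together summed to 54.5, 60.9 and 69.4 TPM in WT and to 152, 102 and 141 TPM in *Sirt6* KO, with no overlap. The receptor transcripts were also not raised evenly. Beta to alpha was 3.71, 3.65 and 4.31 in WT and 5.83, 6.36 and 5.14 in *Sirt6* KO, and *Musk* to *Chrne* was 3.75, 4.80 and 2.82 in WT and 1.28, 1.18 and 0.844 in *Sirt6* KO. Neither of these ratios overlapped between the groups, and no test was made of them. *Musk* to *Chrne* sets a kinase transcript against a subunit and carries the *Chrne* difference given above. Epsilon to delta did overlap, at 4.50, 3.40 and 17.4 in WT and 28.5, 10.9 and 22.9 in *Sirt6* KO. Of single genes tested, 20.3% had no overlap with *Sirt6* KO higher and 19.6% with it lower, and no such share was made for ratios.

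Over the 6 libraries, on log2 CPM, *Chrnb1* moved with *Rapsn* (Pearson r 0.945), *Chrna1* (0.947) and *Chrne* (0.926), against *Dok7* (-0.870), and little with *Agrn* (0.241). *Musk* moved against *Lrp4* (-0.831). These correlations hold the group difference within them and are given as a description. The 3 genes of the whole table whose profile was most like that of *Chrnb1* over the 6 libraries were *Ddr1* (0.998), a collagen receptor, *Sh2b2* (0.997), a signalling adaptor, and *Gins3* (0.997), a part of the replication helicase.

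Among 34 other genes of the synapse, 31 were tested, and 1 rose and 3 fell, or 12.9%, where 16.2% of all genes tested passed. DESeq2 called 9 of the 31, or 29.0%, 4 of them higher, where it called 26.9% of all genes. *Lamb2*, the laminin beta2 chain of the synaptic basal lamina, went from 126, 128 and 121 CPM in WT to 242, 261 and 248 CPM in *Sirt6* KO, with narrow spread in both groups. Its log2 fold change was 1.01 (SE 0.10) with an adjusted p of 0.011 in edgeR's test. The 3 that fell were *Macf1*, a cytoskeletal linker at the junction, at -0.65 (adjusted p 0.0200), *Crk*, an adaptor that joins Dok7, at -0.50 (adjusted p 0.0333), and *Gabpa*, the factor that binds the N-box, at -0.35 (adjusted p 0.0493). *Ache*, the esterase that ends transmission, was at 11.6, 13.5 and 27.7 CPM in WT and 28.0, 32.1 and 41.1 CPM in *Sirt6* KO, groups that came within 1 CPM of each other, with a log2 fold change of 0.94 and an adjusted p of 0.0911. *Colq*, the collagen tail that anchors that enzyme, had a log2 fold change of 0.36 (adjusted p 0.354), *Utrn*, for the synaptic dystrophin relative utrophin, -0.63 (adjusted p 0.0686), and *Etv5*, an ETS factor of synaptic nuclei, 0.03 (adjusted p 0.933).

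The genes best known to rise when a muscle is denervated, other than the 10 above, mostly did not rise. Of 20 such genes, all tested, 1 rose and 5 fell, or 30.0% against 16.2% of all genes in either direction, with a median log2 fold change of -0.25. DESeq2 gave an adjusted p for 19 of them and called 7, 2 higher, or 36.8% against 26.9% of all genes. *Myog*, myogenin, which drives the receptor genes in denervated fibers through their E-boxes, was at 22.2, 27.7 and 22.4 CPM in WT and at 15.6, 9.14 and 12.3 CPM in *Sirt6* KO. It was lower in every *Sirt6* KO library, with a log2 fold change of -0.96 (SE 0.20) and an adjusted p of 0.0246 in edgeR's test. *Trim63*, the atrophy ubiquitin ligase MuRF1, was at 1177, 2886 and 2551 CPM in WT and at 561, 612 and 719 CPM in *Sirt6* KO, a log2 fold change of -1.81 (adjusted p 0.0181). *Fbxo30*, another atrophy ubiquitin ligase gene, fell by 1.25 on the log2 scale (adjusted p 0.0132). *Gdf5*, a BMP ligand raised by denervation, had 10, 17 and 13 counts in WT and none in *Sirt6* KO, so it was at least 5.08-fold lower when set against 3 counts in each *Sirt6* KO library (adjusted p 0.0200). The fifth gene to fall, *Cdkn1a*, a cell cycle inhibitor that was named after its value was seen, had a log2 fold change of -1.22 (adjusted p 0.0315). The 1 that rose, *Fbxo21*, encodes a ubiquitin ligase subunit and had a log2 fold change of 0.90 (adjusted p 0.0131).

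Of the other classical signs in the list, the 5 named here did not pass edgeR's test, and *Myh3* passed in DESeq2. *Ncam1*, the adhesion molecule that spreads over denervated fibers, was at 5.95, 5.13 and 7.54 CPM in WT and at 4.65, 6.01 and 5.48 CPM in *Sirt6* KO, with overlap. *Runx1*, a transcription factor of denervated muscle, had a log2 fold change of -0.44 (adjusted p 0.270) and *Hdac4*, a repressor that links denervation to myogenin, one of -0.61 (adjusted p 0.352). The embryonic myosin *Myh3* was higher in each *Sirt6* KO library, at 33.7, 47.7 and 28.8 CPM against 25.8, 18.3 and 21.9 CPM, with a log2 fold change of 0.74 and an adjusted p of 0.0535. The perinatal myosin *Myh8* had 0.25 (adjusted p 0.383). Among 8 genes known to fall on denervation, 1 fell, *Ppargc1a*, the coactivator PGC-1α of mitochondrial genes, at -3.28 (adjusted p 0.0186), and the median of the list was -0.01. That is 12.5% called, near the background of 16.2%, while DESeq2 called 3 of the 8, 2 of them higher.

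**Figure D5:**
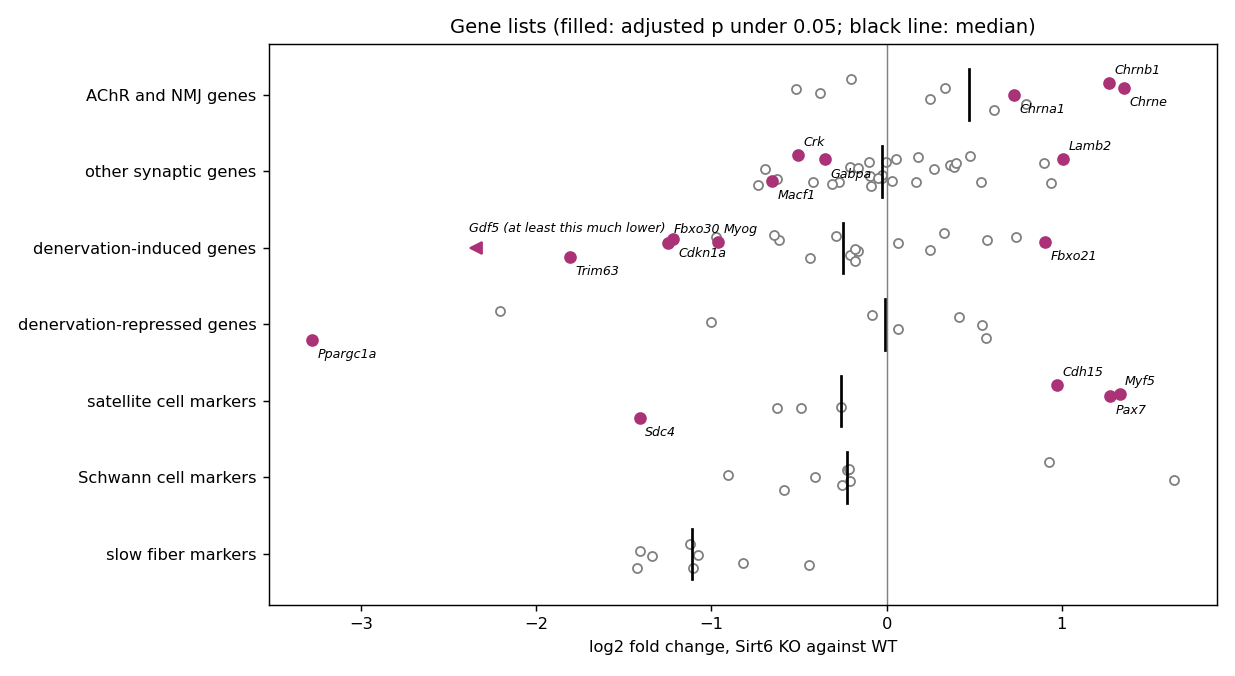
Each point is a gene, placed on the horizontal axis by its log2 fold change, *Sirt6* KO against WT, with vertical scatter for legibility alone. Filled points have an adjusted p under 0.05 and are named, black lines mark list medians, and the triangle for *Gdf5* stands at its bound against 3 counts. The receptor and junction genes have a median of 0.47, while the denervation-induced genes have one of -0.25 with *Trim63*, *Fbxo30*, *Cdkn1a* and *Myog* to the left.

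Cells other than fibers also hold some of these transcripts, and in bulk tissue fewer cells of a type and less RNA per cell cannot be told apart. The 9 Schwann cell markers reported here summed to 20.0, 31.6 and 10.1 CPM in WT and to 9.74, 17.9 and 20.8 CPM in *Sirt6* KO, with overlap. None of the 9 passed edgeR's test, 1 had an unadjusted p under 0.05, and DESeq2 called none of the 6 for which it gave an adjusted p. Of 10 motor axon markers, 3 were expressed enough to test, none passed edgeR's or DESeq2's test (1 had an unadjusted p under 0.05), and 4 had no count in any library, among them *Chat*, which makes acetylcholine. Nuclei of motor neurons lie in the spinal cord, so muscle RNA says little about the nerve. Of 7 satellite cell markers, 3 rose in edgeR's test, *Myf5* (1.33, adjusted p 0.0225), *Pax7* (1.28, adjusted p 0.0299) and *Cdh15* (0.97, adjusted p 0.0243), and 1 fell, *Sdc4* (-1.41, adjusted p 0.0257). That is 57.1% called, where 16.2% of all genes tested passed, 7.85% higher and 8.39% lower. DESeq2 called 4 of the 7, 3 of them higher, where it called 26.9% of all genes. The 7 summed to between 108 and 195 CPM in WT and between 91.5 and 102 CPM in *Sirt6* KO. *Sdc4* alone held 135, 165 and 71.6 CPM of these sums in WT and 36.3, 50.6 and 52.7 CPM in *Sirt6* KO. *Pax7* itself was at 0.421, 0.488 and 0.541 CPM in WT and at 1.16, 1.04 and 1.33 CPM in *Sirt6* KO. Their part in the receptor values was not tested. None of the 10 myofiber markers passed edgeR's test, 1 had an unadjusted p under 0.05, and DESeq2 called 3, or 30.0%, all higher in *Sirt6* KO. Over all genes, DESeq2 called 26.9%, 13.2% of them higher and 13.7% lower as shares of all genes. Of the 6 fibroblast and 6 endothelial markers, none passed in edgeR, 2 of each had an unadjusted p under 0.05, and DESeq2 called 1 of each lower. For all these lists, the background is 4875 of 13801 genes tested with an unadjusted p under 0.05 in edgeR's test. The slow fiber, tenocyte, macrophage, adipocyte and erythroid markers had 0 calls in edgeR and DESeq2 and 0 with an unadjusted p under 0.05. All 8 slow fiber markers (median log2 fold change -1.11) and all 5 erythroid markers (-0.82) were lower on average in *Sirt6* KO. All 6 adipocyte markers were higher (0.82), and tenocyte and macrophage markers went both ways. The groups overlapped for every slow fiber, erythroid and adipocyte marker. WT library 3 had the lowest sum of the 6 libraries for these 3 lists, at 136, 46.6 and 4.76 CPM. The slow fiber and erythroid sums followed the split across the genotypes described above, so a shared direction within a list does not count gene by gene.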

How the data were processed

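RNA-seq counts of 6 gastrocnemius libraries, 3 labelled WT and 3 labelled *Sirt6* KO, were analysed, grouped by their labels. The submitters' processing notes list bcl2fastq 2.20.0, FastQC 0.11.7, HISAT2 2.1.0, Bowtie2 2.3.4.1 and StringTie 2.1.3b on mm10, while the reporting summary names STAR. The labels name a stranded kit and the methods an unstranded one, and the strand setting of the counting is not given in the sources used here, so reads of overlapping antisense genes may be included. The authors deposited raw gene counts from StringTie, unscaled between libraries. Beside them the authors deposited FPKM, which divides by length and depth, and the deposited TPM sums to the same total in every library.

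In R 4.3.3, edgeR 4.0.16 was used for the main test (filterByExpr, TMM, quasi-likelihood fit, Benjamini-Hochberg over all 13801 genes tested, threshold 0.05). Alternatives used DESeq2 1.42.0 and its size factors, other filters (none, or at least 10 counts in every library), limma 3.58.1 on log2(FPKM + 1) and log2(FPKM + 0.1), a replicate block, an offset for GC content, and each library left out. The fits were first tested on simulated data. The 7342 genes with no count in any library were not tested. Fold changes against a group without counts were set against 3 counts per library, which covers counting error only. The labels number the replicates without saying that each is a separate animal, and the reporting summary speaks of biological replicates for all experiments. P-values measure the spread between these libraries. Promoter windows came from the RefSeq table.

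The 10 genes and all lists were chosen with earlier results of these data known. From the other lists, genes past the threshold were named, up to 4 in each direction by p, with *Myog*, *Ncam1*, *Runx1*, *Myh3*, *Myh8*, *Ache*, *Colq*, *Utrn*, *Etv5* and *Hdac4* whatever their values, and the 3 genes most like the junction gene of smallest p. A further gene of the Schwann cell list is not reported here and was left out of that list's counts and sums.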

Additional observations from a re-analysis of the deposited data

How the results depend on the processing

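*Chrnb1* kept its direction in all 16 alternatives and its call in 13, *Chrne* in 9 and *Chrna1* in 6. Of the 10 genes, those called higher numbered 1 with no filter on low counts, where 830 of all genes were called higher and 896 lower. They numbered 1 with the GC correction, where 471 and 485 of all genes were called. In the fits without 1 library they ran from 0 to 4. The 0 included the fit without *Sirt6* KO library 1 (6 and 2 of all genes called), and the 4 came without WT library 3 (2363 and 2219). With the *Hbb-bt* covariate they numbered 4, where 1182 of all genes were called higher and 1322 lower. Those called lower numbered 1 by DESeq2, with the GC correction, with the block and GC correction, and with the *Hbb-bt* covariate, which was chosen after seeing the data; without 1 library they numbered between 0 and 1. *Chrna1* lost its call with no filter (0.73, adjusted p 0.0580), with limma (0.58 and 0.69), with the GC correction (0.83) and in 4 fits without 1 library (0.60 to 0.92 over all 6). *Chrne* lost it with no filter (1.36, adjusted p 0.0524), with the GC correction (1.22) and in 5 fits without 1 library (1.09 to 1.81 over all 6), being called without WT library 3 alone. *Chrnb1* ranged from 1.12 to 1.44. *Chrnd* turned sign with the covariate (0.12) and ranged from -0.48 to 0.13 without 1 library. *Dok7* gained the call by DESeq2 (-0.52), with the GC correction (-0.78), with the block and GC correction (-0.81) and without *Sirt6* KO library 2, ranging from -0.73 to -0.40 over the fits without 1 library. *Lrp4* gained it by DESeq2 (0.61) and with the covariate (0.72), *Musk* with the covariate (-0.53), and *Rapsn* without WT library 3 (0.44), ranging from 0.27 to 0.44 over those fits. The cause was not tested.

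Over all genes, 1746 higher and 1820 lower were called by DESeq2, 471 and 485 with the GC correction, and 434 and 647 at an unadjusted p under 0.05 with above 2-fold. Without 1 library the calls ranged from 6 to 2363 higher and from 2 to 2219 lower. The fewest were left without *Sirt6* KO library 1 (6 and 2) and *Sirt6* KO library 3 (8 and 5). Every fit without 1 library held 2 libraries in 1 arm. With replicate numbers as a block, 904 were called higher and 1018 lower, and *Chrna1* lost its call (0.71, adjusted p 0.0706); with the block and GC correction 246 and 322 were called, with *Chrna1* at 0.81. The correlations of same-numbered libraries' deviations were -0.106, 0.260 and 0.161, so the numbers were not taken as pairs. *Chrng*, at 7 to 23 counts, was limited by depth, and the filter of at least 10 counts in every library removed it.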

Other observations

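Muscle activity is read into the receptor genes through calcium-dependent kinases and class II histone deacetylases. Of 14 genes of that kind, all tested, 1 rose and 1 fell, or 14.3% against 16.2% of all genes tested, with a median log2 fold change of -0.03. Of the 14, 7 had an unadjusted p under 0.05, where 4875 of all 13801 genes tested did. DESeq2 called 3, 2 higher, or 21.4% against 26.9% of all genes. *Camk2g*, a calcium and calmodulin dependent kinase subunit, was at 155, 153 and 185 CPM in WT and at 265, 210 and 242 CPM in *Sirt6* KO, a log2 fold change of 0.54 with an adjusted p of 0.0403 in edgeR's test. *Sik1*, a kinase that phosphorylates class II deacetylases, was at 121, 174 and 41.3 CPM in WT and at 19.3, 28.0 and 17.7 CPM in *Sirt6* KO, a log2 fold change of -2.37 with an adjusted p of 0.0229.

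The nicotinic subunits other than those of the muscle receptor were nearly silent. Of 11 such genes, 5 had no count in any library, 3 were expressed enough to test, and none passed in edgeR's test or in DESeq2, while 1 had an unadjusted p under 0.05. The sum of the 11 lay between 3.07 and 4.03 CPM in WT and between 1.88 and 2.50 CPM in *Sirt6* KO. The 3 tested were all lower on average in *Sirt6* KO. For 2 of them the groups did not overlap, where 19.6% of all genes tested had no overlap with *Sirt6* KO lower.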
